A study of Mus musculus with 116 samples.

Results

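Cas9 was targeted to c-Myc in mouse v-Abl pro-B cells, and 1182 of the joins sequenced from that break were inverted: the broken end (the bait) was joined to sequence of the same chromosome, within 100 kb, that ran in the opposite orientation (the prey). They were chosen as the rows of the Cas9 JoinT-seq lists on chromosome 15 with strand -1 and a junction within 100000 bp of the break, out of 891855 rows in these lists and 2482573 rows in the 132 lists of the series. The same lists held 844071 direct joins, which have the original orientation and lie in the same window; in all but 278 of them the prey lies beyond the break, as in rejoined ends and deletions. The choice used orientation and position, so neither is a result in itself.

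The libraries came from Abelson-transformed progenitor B cells with an Emu-Bcl2 transgene, which all groups carried, and the study set out to compare how Ku70 and Lig4 shape repair in G1. There were 54 Cas9 libraries in 18 sets of 3 replicates. In 48 libraries of 16 sets the cells had been arrested in G1 by STI-571, a kinase inhibitor (3 µM for 96 h), and in 6 libraries of 2 sets they cycled without it, so arrest and inhibitor cannot be told apart. Nothing in the labels says that replicates were separate cultures, so p-values measure the spread between these libraries, which may be technical.

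The arrested WT sets were WT_A and WT_A_b (clone A) and WT_B (clone B). Ku70-/- sets were Ku70_A1 and Ku70_B1, and Lig4-/- sets were Lig4_A1, Lig4_A1_b and Lig4_A1_c (all clone A1), Lig4_B1 and Lig4_C. Lig4-/-Ku70-/- sets were Lig4Ku70_A1_1 and Lig4Ku70_C1, with Ku70 added back in Lig4Ku70K_A1_1 and Lig4Ku70K_C1. Lig4 was added back to Lig4-/- cells in Lig4L_A1 and Lig4L_C. The cycling sets were WT_A_cycling and Lig4_A1_cycling. Each genotype is therefore represented by 1 to 3 clones, and clones whose names start with the same letter were treated as a lineage. Genotypes rest on the labels, since no expression data were used. A library's raw read number is the one its labels give, 201858 to 600000.

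Ku70 is a subunit of the Ku heterodimer, which binds broken DNA ends, and Lig4 is the ligase that seals them in classical non-homologous end joining. Cells without either protein can still join ends by alternative end joining, which often uses short stretches of identical sequence (microhomology) at ends that have lost bases. When an end is joined in the wrong orientation, the product is an inversion, or a fusion of like ends that leaves a chromosome with an extra or a missing centromere. DNA replication in cycling cells supplies a sister copy of each chromosome.

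The break lies in Myc, on chromosome 15, with the bait ending at 61987303 and the prey of a precise rejoining starting at 61987304 (mm10). The RefSeq span of Myc is 61985341 to 61990361 in GRCm38.p6, so the break lies 1963 bp inside its start; exon and intron annotation was not used here. The sequence around the break, chr15:61987264-61987343 on the plus strand, was assembled from the deposited direct joins and is shown because every join is measured from its centre, after base 40. The capitals mark an NGG, the motif that Cas9 needs beside its target, at bases 4 to 6 after the break.
break: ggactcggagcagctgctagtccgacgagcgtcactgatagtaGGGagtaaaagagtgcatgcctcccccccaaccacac

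The bait lies at the lower coordinates and 96.8% of bait alignments began at 61987195, which is 108 bp before the break. An inverted join with its prey above the break ran back towards the break (prey side). An inverted join with its prey below the break linked bait-side sequence to bait-side sequence, head to head (bait side). The reads do not tell from which molecule the second bait-side sequence came. Distance is counted in bp between break and prey junction, and bait end loss is the number of bp missing from the bait, which reached 78 bp in inverted and 87 bp in direct joins; a loss that takes the bait's primer site cannot be read. Overlap is the number of read bases that fit both bait and prey: at least 2 bp is called microhomology, 0 is blunt, and below 0 means inserted bases.

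Inverted joins clustered near the break, though less closely than direct joins. Their pooled median distance was 669.5 bp, against 0 bp for direct joins as listed and 41 bp for direct joins counted once per distinct junction. Of the 1182, 1049 (88.7%) lay within the span of Myc, 3 in the long non-coding RNA gene Pvt1 and 0 in the pseudogene Gm18788, the other genes in the window. Only 15 lay beyond 10 kb. The farthest joins inside the 100 kb limit lay at 96320 and 85766 bp and the nearest outside it at 129253 and 135196 bp.

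Example joins for the contrast described next are shown here as read sequences, with the overlap in capitals, 30 bases of bait before it and prey after it, in the direction of the read. The first 3 are prey positions found in at least 15 libraries, counted over all genotypes. The last 3 are bait-side joins taken from the 6 exact junctions (same prey position and bait end) that all 3 cycling Lig4-/- libraries held outside these positions; ties were settled by rows and then by the lower coordinate. Positions are prey junctions on chromosome 15.
prey side, 61987330, bait end 61987261: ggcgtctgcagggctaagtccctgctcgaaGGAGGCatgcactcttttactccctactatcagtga
prey side, 61988208, bait end 61987273: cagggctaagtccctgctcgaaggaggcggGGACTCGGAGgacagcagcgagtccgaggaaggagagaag
prey side, 61988227, bait end 61987240: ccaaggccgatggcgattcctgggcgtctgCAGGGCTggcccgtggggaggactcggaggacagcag
bait side, 61986998, bait end 61987287: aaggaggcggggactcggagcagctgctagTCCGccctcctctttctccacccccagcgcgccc
bait side, 61987020, bait end 61987286: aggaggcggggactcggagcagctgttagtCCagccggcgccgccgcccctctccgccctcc
bait side, 61987026, bait end 61987286: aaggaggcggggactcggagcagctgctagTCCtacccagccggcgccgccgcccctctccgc
The prey-side joins overlap by 6, 10 and 7 bp and the bait-side joins by 4, 2 and 3 bp. In the read shown for 61987020, the bait holds a t where the break sequence has a c. That printed sequence was held by 2 of the 4 rows of this junction.

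Before the levels, the way the lists hold these reads matters. Of the 1182 inverted rows, 1179 (99.7%) were distinct in junction, bait end and overlap within their library, against 77236 of 844071 direct rows (9.15%). In the 3 Lig4L_A1 lists, which keep the pipeline's filter columns, the column for duplicates was filled (0) for 11 of 11 inverted rows and empty for 30443 of 30466 direct rows. In the 9 lineage A libraries that also have LAM-HTGTS lists, the 56 inverted reads were the same reads in both, whereas direct rows numbered 166113 in the JoinT-seq lists and 6694 in the others. A count of inverted joins is therefore close to a count of different junctions, and a direct join is listed once per read. Per 100000 raw reads, inverted levels can be compared between libraries as numbers of different junctions. Such a number need not grow in step with the raw reads, so levels compare less directly between libraries of unlike raw read number. The ratio of inverted to direct rows mixes both ways of listing.

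Most inverted joins came from cycling cells: 824 of 1182 came from 6 libraries, and 358 from 48 arrested libraries. The cycling Lig4-/- libraries held 199, 224 and 223 inverted joins, or 64.1, 72.1 and 71.8 per 100000 raw reads. The cycling WT libraries held 74, 56 and 48, or 23.8, 18.0 and 15.5 per 100000 raw reads. In arrested cells of the same clones at the same raw read number, WT_A_b held 3, 3 and 4 and Lig4_A1_b held 2, 3 and 2. No cycling library overlapped an arrested one, and each cycling Lig4-/- library exceeded each cycling WT library.

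On the log2 scale of joins plus 0.5 per 100000 raw reads, cycling exceeded arrested cells by 3.95 in WT and by 6.27 in Lig4-/-. With 3 libraries against 3, an exact permutation test (two-sided) gave p = 0.1 for each, the smallest such a design allows (adjusted p = 0.154 over 20 planned tests). Against all arrested sets of the clone, the differences were 3.74 in WT (6 arrested libraries, exact p = 0.0119) and 5.51 in Lig4-/- (9 arrested libraries, exact p = 0.00455), both the smallest p possible. These sets differed in raw read number, with 310675 and 396387 in WT and 201858 to 396387 in Lig4-/-. Cycling Lig4-/- exceeded cycling WT by 1.87 (exact permutation p = 0.1, the smallest possible). The cycling effect in Lig4-/- exceeded that in WT by 2.32 on this scale, which did not pass (exact permutation p = 0.55, adjusted p = 0.823). That test shuffles labels within each genotype, so it is a weak guide where both effects are large.

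Sequencing runs, read from the read names, were mixed across these groups. Both cycling sets were read in the same 2 runs, where Lig4-/- exceeded WT by 1.51 and 2.09. Arrested Lig4_A1_c libraries 1 and 2 were read in 1 of these runs and held 4 and 5 inverted joins (1.98 and 2.48 per 100000 raw reads), against 71.8 per 100000 in the cycling Lig4-/- library of that run. For WT, cycling and arrested libraries had no run in common, so run and status cannot be told apart there.

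**Figure D1:**
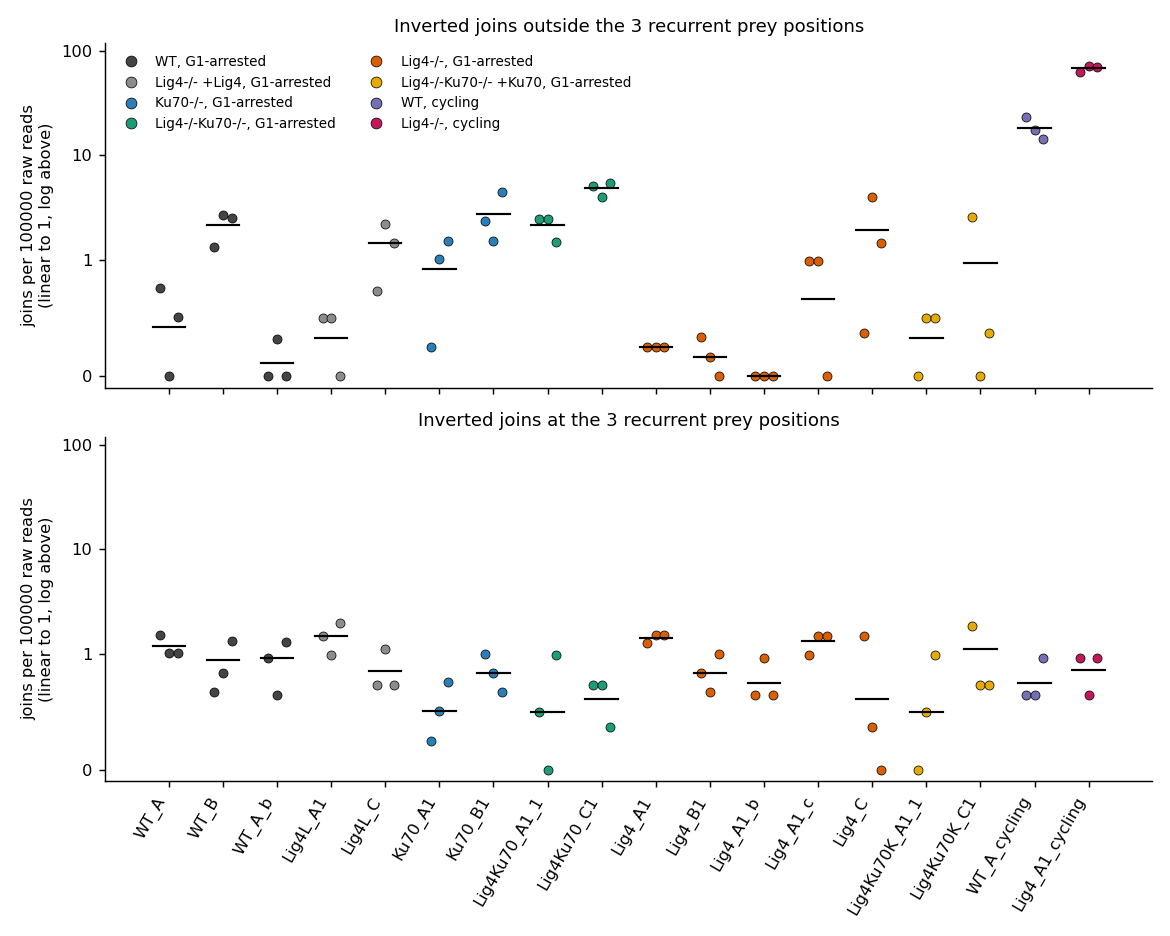
Inverted joins per 100000 raw reads in each Cas9 library (points, 3 per set) with the set's mean (line), on an axis that is linear to 1 and logarithmic above, by set. Above, joins outside the 3 recurrent prey positions run from 14.5 to 71.5 in cycling libraries and from 0 to 5.49 in arrested ones. Below, joins at these positions stay between 0 and 1.98 in every set, where an exact junction is listed about once per library at most.

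A few recurring joins made up much of what arrested cells showed. With only 6 cycling libraries, a position could be counted as recurrent only by way of arrested ones, so its larger share there follows in part from the choice. The 3 recurrent prey positions, named after the lists were seen as those held by at least 15 of 54 libraries, gave 149 of the 358 arrested joins (41.6%) but 15 of the 824 cycling joins (1.82%). Any other position was held by at most 10 libraries. Per 100000 raw reads their joint level was 0.901 ± 0.451 (SD, n = 48 arrested libraries) and 0.805 ± 0.176 (SD, n = 6 cycling libraries). An exact junction is listed about once per library at most, which holds this level down whatever the number of reads. It therefore cannot show whether these joins were equally frequent in arrested and cycling cells.

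The position 904 bp beyond the break, 61988208, was listed 94 times in 49 of 54 libraries, in each of the 8 combinations of genotype and status. With its commonest bait end, 61987273, it was listed exactly once in each of these 49 libraries. Nearly all inverted rows were distinct within their library, so a single row does not tell how many reads held an exact junction. The rows named 10 different bait ends, but 68 of the 94 reads held the same 50 bases around the start of the prey, so some of these rows differ only in where the alignments were ended. The position 26 bp beyond the break, 61987330, was listed 52 times in 47 libraries, 47 of these rows with the bait end 61987261. The prey of its printed read continues across the break position into bait-side sequence, which is intact there. The position at 923 bp, 61988227, was listed 18 times in 18 libraries, always with the bait end 61987240. It was absent from arrested Lig4-/-Ku70-/- and from cycling WT libraries. The printed sequences show what all 3 share: 6 to 10 matching bases. This is longer than the median overlap of 2 bp among those other arrested joins that overlapped by at least 1 bp. Whether they formed in cells or during library preparation was not tested.

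Leaving out the recurrent positions removed mostly arrested joins, so a wider contrast between cycling and arrested cells follows from the choice and is given only as a description. Cycling Lig4-/- libraries kept 196, 222 and 220 joins and cycling WT libraries 72, 54 and 45, whereas Lig4_A1_b kept 0, 0 and 0 and WT_A_b kept 0, 1 and 0. In the other arrested sets the counts ran from 0 to 27 per library. The log2 differences became 6.29 in WT and 8.73 in Lig4-/-; these rest on the added 0.5 where arrested libraries are at 0 and are no bounds.

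Inverted joins lay mostly on the bait side in cycling cells. In arrested cells of the same clones, where the recurrent prey-side positions make up most joins, they lay mostly on the prey side. In cycling WT 61 of 74, 50 of 56 and 43 of 48 inverted joins were bait-side, and in cycling Lig4-/- 181 of 199, 197 of 224 and 199 of 223, which is 87.1% ± 4.05 and 89.4% ± 1.51 (SD, n = 3 each). In the arrested libraries of the same clones 0 to 33.3% were bait-side in WT (mean 8.33% ± 13.9, n = 6) and 0 to 40% in Lig4-/- (10.7% ± 14.5, n = 9). The groups did not overlap, and the differences were 78.8 percentage points in WT (exact permutation p = 0.0119) and 78.7 in Lig4-/- (p = 0.00455, exact permutation). Each arrested library here holds only 2 to 9 joins, below the planned minimum of 10, and includes the recurrent prey-side positions. Outside these, Lig4_A1 held 1, 1 and 0 bait-side joins of 1, 1 and 1, and Lig4_A1_c 1, 2 and 0 of 2, 2 and 0. WT_A held 0, 0 and 1 of 3, 0 and 2, and WT_A_b 0, 1 and 0 of 0, 1 and 0. Lig4_A1_b held none, so the same-clone contrast cannot be judged without the recurrent positions. Pooled over arrested libraries without these positions, 122 of 209 joins (58.4%) were bait-side, against 731 of 809 (90.4%) in cycling libraries. Arrested libraries of other clones reached the cycling range: Lig4Ku70_C1 held 37.5%, 61.5% and 87.5% bait-side joins. The position plot shows the sides by genotype, with the recurrent prey positions as 2 columns to the right of the break.

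**Figure D2:**
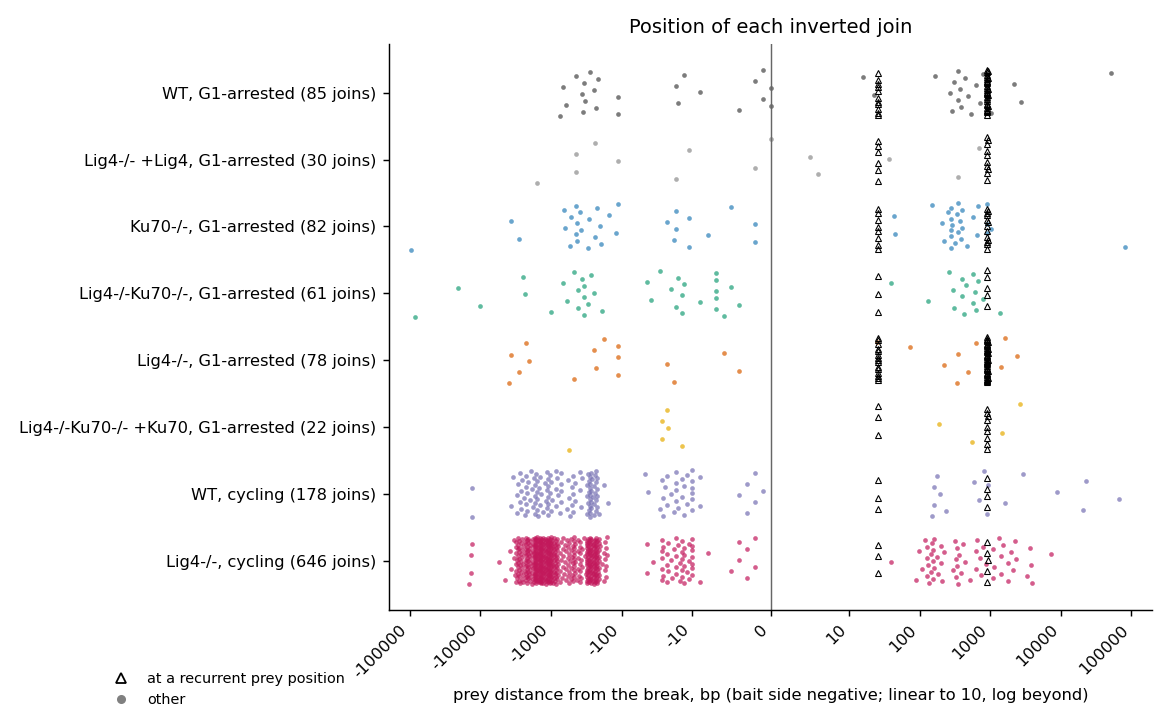
Prey position of each of the 1182 inverted joins relative to the break, in bp (1 symbol per join; bait side negative; linear to 10 bp and logarithmic beyond), by genotype and status. Triangles mark the 3 recurrent prey positions, 26, 904 and 923 bp from the break; 577 of 646 joins of cycling Lig4-/- and 154 of 178 of cycling WT lie to the left.

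The bait side was not filled evenly. No library held an inverted join between 47 and 113 bp on the bait side, a stretch that contains the start of the bait alignment at 108 bp. In cycling Lig4-/-, 9.38% ± 0.495 of bait-side joins lay within 50 bp, 25.3% ± 5.39 at 201 to 500 bp and 35.9% ± 5.31 beyond 1000 and up to 2000 bp (SD, n = 3). In cycling WT the same shares were 22.9% ± 3.92, 30.01% ± 5.53 and 21.2% ± 2.28. For the shares within 50 bp and between 1000 and 2000 bp the ranges of the genotypes did not overlap, the first larger in WT and the other in Lig4-/-; no test was run on them. Beyond 2000 and up to 5000 bp the shares overlapped, at 12.1% ± 5.73 in WT and 12.8% ± 0.699 in Lig4-/-.

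The median distance of all inverted joins followed this order. It was 964, 999 and 846 bp in the cycling Lig4-/- libraries and 490, 558 and 341.5 bp in the cycling WT libraries, which do not overlap. The difference was 0.313 on the log10 scale of 1 plus the median (exact permutation p = 0.1, the smallest possible). Arrested medians of the same clones are set by the recurrent position at 904 bp: the log10 value averaged 2.88 ± 0.161 in WT (n = 6) and 2.85 ± 0.135 in Lig4-/- (n = 9), against 2.66 ± 0.110 and 2.97 ± 0.0380 in cycling cells. Neither cycling difference passed (exact permutation p = 0.0833 in WT and p = 0.182 in Lig4-/-).

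The loss of the bait end itself was short. Its median over the inverted joins of a library ran from 23 to 42 bp in cycling cells and from 12 to 54.5 bp in arrested cells. In cycling Lig4-/- the pooled median prey distance was 919 bp and the pooled median bait loss 25 bp; in cycling WT they were 470.5 and 29 bp. These 2 losses are not on a par, since a bait loss beyond the primer cannot be read.

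Microhomology was common at inverted joins. In cycling WT 74.3%, 64.3% and 62.5% of inverted joins overlapped by at least 2 bp, and in cycling Lig4-/- 72.9%, 71.9% and 75.8%. The genotypes overlapped and differed by 6.47 percentage points (exact permutation p = 0.3). The commonest overlap of inverted joins was 2 bp in both, at 29.8% in WT and 27.1% in Lig4-/-, followed by 3 bp at 16.3% and 20.4%; the longest pooled overlaps outside the recurrent positions were 11 and 10 bp. Insertions were found at 19.1% ± 7.38 of inverted joins in cycling WT and 15.0% ± 2.69 in cycling Lig4-/- (SD, n = 3; exact permutation p = 0.5), with a median length of 4 and 2 bp. Arrested libraries of these clones had the higher microhomology share, 88.0% ± 14.2 in WT (n = 6) and 96.2% ± 7.69 in Lig4-/- (n = 9), where the recurrent positions, all with microhomology, make up most joins. The cycling minus arrested differences were -20.9 points (exact permutation p = 0.0357) and -22.7 points (exact permutation p = 0.00455). Pooled outside the recurrent positions the order turned, with 581 of 809 cycling joins (71.8%) and 103 of 209 arrested joins (49.3%) at 2 bp or more; the arrested pool spans all genotypes.

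Direct joins of the same cycling libraries differed from inverted joins, and by how much depended on the genotype. In cycling WT the commonest direct join carried 1 inserted base (34.5% of direct rows), and the microhomology share of inverted joins exceeded that of direct joins by 46.4 percentage points ± 10.2 (n = 3). In cycling Lig4-/- direct joins also peaked at 2 bp of overlap (33.8%), and the excess was 11.3 points ± 2.50 (n = 3). Over both genotypes inverted joins were higher in 6 of 6 libraries, by 28.8 points (exact sign-flip permutation p = 0.03125, the smallest possible for 6 libraries; a grouping added after the lists were seen). The plot of overlap lengths shows the displaced peaks in WT and the shared peak in Lig4-/-.

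The size of the excess depended on which direct joins were counted. Against each distinct direct join counted once, the excess of microhomology was 43.1 points in WT and 37.6 in Lig4-/-. Against distinct direct joins more than 10 bp from the break it was 32.7 points in WT and 31.5 in Lig4-/-, and 32.1 over 6 of 6 cycling libraries (exact permutation p = 0.03125). The insertion share of inverted joins minus that of direct joins was then -9.63 points in WT and -15.4 in Lig4-/-. Inverted prey also lay farther out: the log10 median distance exceeded that of direct joins by 2.50 in cycling WT and 1.56 in cycling Lig4-/- as listed, and by 0.948 and 0.846 against distinct direct joins beyond 10 bp.

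**Figure D3:**
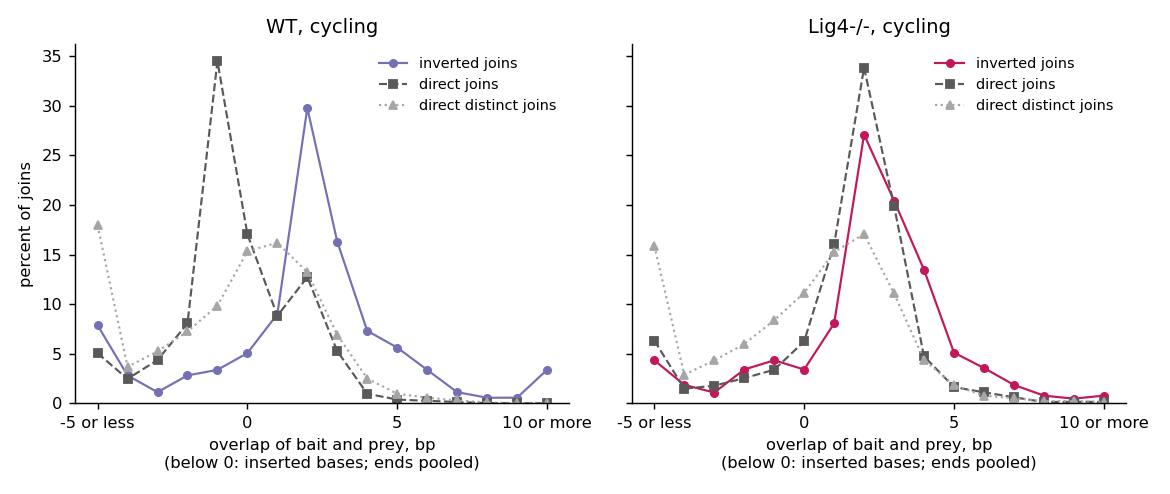
Percent of joins by overlap of bait and prey in bp (below 0 are inserted bases; both ends of the axis pool longer values) in cycling WT (left) and cycling Lig4-/- (right), for inverted joins, direct joins as listed and distinct direct joins. Inverted joins peak at 2 bp in both genotypes, while direct joins as listed peak at 1 inserted base in WT and at 2 bp in Lig4-/-.

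Inverted joins of cycling cells were mostly different from library to library. Outside the recurrent positions, 661 of 725 exact junctions (91.2%) occurred in 1 of the 6 cycling libraries, and the widest shared one, prey 61987026 with 3 overlapping bases, occurred in 5. Cycling Lig4-/- libraries shared 19, 10 and 28 exact junctions in pairs, which is at most 12.8% of either list. Cycling WT libraries shared 0, 2 and 2. Pairs of a WT and a Lig4-/- library shared 3 to 7, at most 15.9% of the WT list and 3.21% of the Lig4-/- list. The median overlap was 3 bp in junctions found in several libraries and 2 bp in those found in 1. No replicate pair of any set shared a read name.

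In arrested cells the levels were low and the genotypes mostly overlapped. WT_A held 9, 4 and 6 inverted joins, WT_B 12, 21 and 23, Ku70_A1 2, 6 and 9, and Ku70_B1 20, 14 and 31. Means per 100000 raw reads were 1.60 ± 0.635 and 3.11 ± 0.977 in the WT sets and 1.43 ± 0.886 and 3.61 ± 1.44 in the Ku70-/- sets (SD, n = 3). Both lineage B means lay above both lineage A means. On the log2 scale Ku70-/- minus WT was -0.05, and this did not pass (exact permutation test, p = 0.885 and adjusted p = 0.932); its sign turned without the recurrent positions (0.69).

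Lig4-/- cells gave low counts in both lineages. Lig4_A1 held 6, 7 and 7 inverted joins (1.68 ± 0.146 per 100000 raw reads) and Lig4_B1 held 7, 5 and 6 (1.00 ± 0.167). The log2 level of Lig4-/- minus that of WT was -0.69 and did not pass (exact permutation p = 0.1, adjusted p = 0.154). Lineage A gave 0.13 and lineage B -1.52, and only in lineage B did the libraries not overlap; with the other arrested lineage A sets the difference was -0.98 (exact p = 0.015) and without WT_A replicate 2 it was -0.83 (exact p = 0.045). Outside the recurrent positions, Lig4_A1 kept 1, 1 and 1 joins and Lig4_B1 2, 1 and 0, against 3, 0 and 2 in WT_A and 8, 16 and 15 in WT_B. Ku70-/- kept 1, 4 and 6 in lineage A and 14, 9 and 27 in lineage B. The Ku70-/- minus Lig4-/- difference over all positions was 0.65 (exact permutation p = 0.215). Without Ku70_A1 replicate 1 it was 0.92 (exact permutation p = 0.045). Without the recurrent positions the difference was 2.45, given only as a description. These positions held 52 of 78 joins in arrested Lig4-/- libraries but 21 of 82 in Ku70-/- ones. A wider difference therefore follows in part from leaving them out.

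Cells without both proteins had higher mean levels of inverted joins than their Lig4-/- counterparts, a difference that sat at the threshold. Direct rows of the same libraries were more numerous too, at 5974 to 41770 against 16 to 362 per library. Lig4Ku70_A1_1 held 6, 5 and 5 inverted joins against 4, 5 and 3 in Lig4_A1_c. Lig4Ku70_C1 held 16, 13 and 16 against 5, 12 and 4 in Lig4_C. Lineage C separated fully and lineage A did not. The mean difference was 0.79 on the log2 scale, with exact permutation p = 0.015 and an adjusted p of 0.05, which does not lie below the threshold. Without any 1 of the 3 Lig4Ku70_C1 libraries the exact permutation p was 0.05 to 0.065. Without the recurrent positions the difference was 1.69, given only as a description. These positions held 52 of 78 joins in arrested Lig4-/- libraries but 8 of 61 in Lig4-/-Ku70-/- ones. A wider difference therefore follows in part from leaving them out.

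Adding Ku70 back lowered the level of inverted joins, and direct joins of the same libraries fell as well. Mean inverted joins per 100000 raw reads went from 4.07 to 1.45, and direct rows from 9445 to 395 (n = 6 libraries each). The share of inverted joins among both is given below. Lig4Ku70K_A1_1 held 0, 2 and 3 inverted joins and Lig4Ku70K_C1 held 12, 2 and 3, against the 6, 5 and 5 and the 16, 13 and 16 of the double mutants. No library overlapped its counterparts in either lineage. The level fell by 1.76 on the log2 scale (1.83 and 1.69 in the 2 lineages, each a decrease), with an exact permutation p of 0.005, the smallest possible, and an adjusted p of 0.02. The library with 0 inverted joins holds 75 direct joins, so 3 joins, the limit that a count of 0 allows, would be a share of 4%, for counting error only. Adding Lig4 back to Lig4-/- cells gave 4, 3 and 4 in Lig4L_A1 and 4, 9 and 6 in Lig4L_C, which overlap Lig4_A1_c and Lig4_C (-0.07 on the log2 scale, exact permutation p = 0.78).

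The structure of arrested joins could be compared by library only where at least 10 were listed. In lineage B, 41.6% ± 1.46 of Ku70-/- inverted joins were bait-side, 4.74 percentage points more than in WT (exact permutation p = 0.1, the smallest possible; adjusted p = 0.154). Microhomology was found at 65.0%, 64.3% and 64.5% in Ku70_B1 and 58.3%, 57.1% and 73.9% in WT_B (difference 1.47 points, exact permutation p = 1). Lig4Ku70_C1 stood lower, at 43.8%, 30.8% and 37.5%, although lineage C holds no other arrested set with enough joins for a test. Pooled outside the recurrent positions, 20 of 53 Lig4-/-Ku70-/- joins (37.7%) had microhomology and 12 (22.6%) were blunt. Blunt joins made up 13.3% of such joins in arrested WT, 13.1% in Ku70-/- and 11.5% in Lig4-/-. They made up 2 of 10 (20%) with Ku70 added back and 2 of 14 (14.3%) with Lig4 added back. The share was 15.8% over all arrested libraries, against 31 of 809 (3.83%) in cycling libraries.

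Within the arrested sets with enough joins, inverted joins, recurrent positions included, had more microhomology than direct joins as listed in 8 of 9 libraries. The excess was 59.1 percentage points ± 9.21 in WT_B, 26.5 ± 0.815 in Ku70_B1 and 4.52 ± 6.55 in Lig4Ku70_C1, where 2 of 3 libraries were higher (n = 3 each; exact sign-flip permutation p = 0.25, 0.25 and 0.5, with 0.25 the smallest possible). Against distinct direct joins the excess was 57.3 points in WT_B, 53.8 in Ku70_B1 and 26.6 in Lig4Ku70_C1. Every join at the recurrent positions had microhomology, and without them the Lig4Ku70_C1 excess over direct joins as listed turned negative. Pooled without them, microhomology was found at 46.7% of inverted joins in arrested WT, 49.2% in Ku70-/- and 37.7% in Lig4-/-Ku70-/-. Direct joins as listed had 1.96%, 37.9% and 33.6%. The other double mutant set, Lig4Ku70_A1_1, with 5 or 6 inverted joins a library, held 50%, 80% and 80% microhomology against 34.9%, 34.7% and 39.9% of direct joins as listed. In WT_B direct joins mostly carried insertions, and the insertion share of inverted joins minus that of direct joins was -57.5 points.

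**Figure D4:**
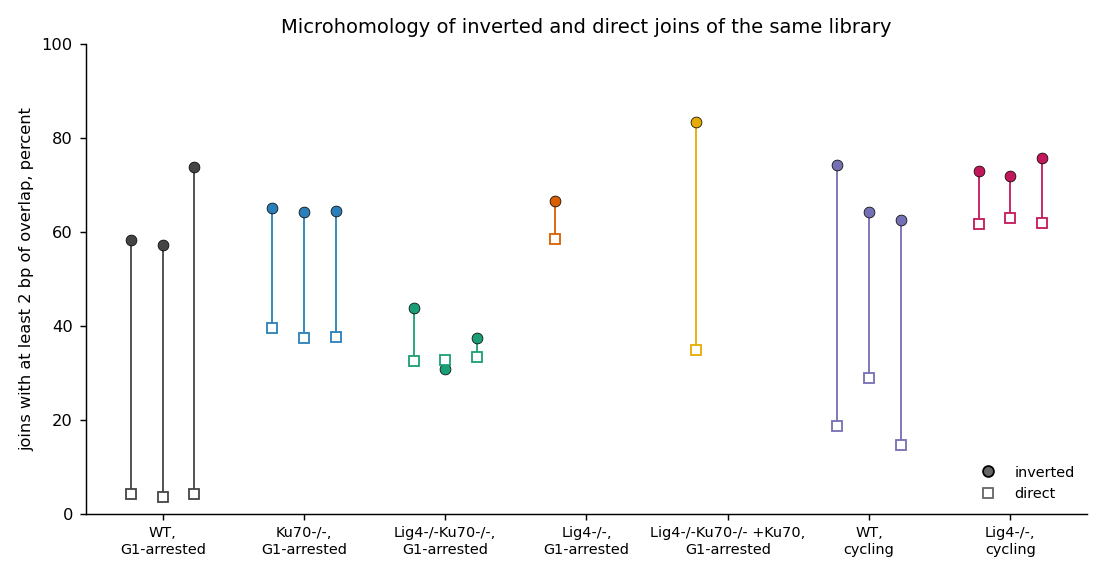
Percent of joins with at least 2 bp of overlap for inverted joins (filled circles) and direct joins (open squares) of the same library, joined by a line, in the 17 libraries with at least 10 inverted joins. Inverted joins lie above direct joins in each library shown but 1, a Lig4-/-Ku70-/- library at 30.8%. Joins at the recurrent positions, all with microhomology, are included.

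Relative to direct joins, inverted joins were frequent where direct joins were few. Lig4_A1 held 42, 32 and 39 direct rows and Lig4_B1 60, 40 and 24, against 26554 to 53210 in WT_A and WT_B, so inverted joins made up 15.2% ± 2.72 and 13.9% ± 5.33 of the joins in the window (SD, n = 3). In WT_A and WT_B they made up 0.0191% ± 0.0109 and 0.0542% ± 0.0174. The Lig4-/- share exceeded WT by 14.5 percentage points, and Ku70-/- minus Lig4-/- was -14.5 points; 6 of 6 libraries lay beyond their counterparts in both (exact permutation p = 0.005, adjusted p = 0.02 for each). Relative to the matched Lig4-/- sets the share fell by 6.63 points in Lig4-/-Ku70-/- and fell by 6.65 points with Lig4 added back (exact p = 0.005, adjusted p = 0.02 for each). Adding Ku70 back to the double mutant moved the share by 0.741 points, which did not pass (exact p = 0.065, adjusted p = 0.154); it was 1.06 without Lig4Ku70K_A1_1 replicate 1, the library with 0 inverted joins (exact p = 0.005), and 0.803 without Lig4Ku70K_C1 replicate 2 (exact p = 0.02). Counting distinct junctions left 16.7% ± 2.64 in Lig4_A1 and 15.8% ± 4.39 in Lig4_B1. The numerators are 5 to 7 joins per library, most of them at the recurrent positions; without these, Lig4-/- exceeded WT by 2.23 points (exact p = 0.02).

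In cycling cells the share depended on how direct joins were counted. As listed it was 2.04%, 1.76% and 2.12% in Lig4-/- and 0.536%, 0.521% and 0.299% in WT, and counting distinct junctions 9.24%, 8.87% and 9.29% against 3.65%, 3.40% and 3.19%. Cycling Lig4-/- was above cycling WT either way, with no overlap (1.52 points as listed; exact permutation p = 0.1, the smallest possible). Cycling Lig4-/- minus arrested Lig4_A1_b was -3.15 points as listed, and 1.99 points with distinct junctions, so no direction is given for that comparison.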

How the data were processed

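Junctions were read by high-throughput sequencing on a Miseq from a primer beside the Cas9 break, and each library was normalised to a stated number of raw reads, per the labels. The deposited lists, made by the authors' JoinT-seq pipeline with Bowtie2 on mm10 per the submitters' processing notes, hold 1 row per junction read with its positions and no value per feature (unit other); an enzyme blocking step was omitted, per the labels. Lists held 74 to 55809 rows. Rows on chromosome 15 within 100000 bp of the break were tallied by strand (Python 3.11.15, pandas 2.3.3, numpy 2.4.6, SciPy 1.17.1, matplotlib 3.10.9) and scaled to 100000 raw reads. Groups were compared by two-sided exact permutation within lineage, on log2(joins + 0.5 per 100000) for levels, with Benjamini-Hochberg adjustment over the 20 planned comparisons and a threshold of 0.05; inverted and direct joins of a library were compared by exact sign-flip permutation. The scripts were tested on simulated data. Structure was compared where libraries held at least 10 inverted joins, which 17 of 54 did. The junctions shown are the 3 recurrent positions and the 3 named in cycling Lig4-/-; the rule for naming was the 3 exact junctions held by most libraries of a genotype and status, ties by rows and then by coordinate. The rule for these joins and the comparisons were chosen with earlier results of these data known, and the 3 recurrent positions after the lists were seen. Other libraries of the series and exon annotation were not used here.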

Additional observations from a re-analysis of the deposited data

Results flagged for a closer look

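Of 18 tests of whether an effect differed between lineages or genotypes, 3 gave an unadjusted exact permutation p below the threshold, and none passed after Benjamini-Hochberg adjustment. Each test shuffles group labels within each lineage or genotype, so its p refers to no effect in either and is a weak guide to a difference where both effects are large. The log2 difference of Lig4-/- against WT in arrested cells was 1.65 higher in lineage A than in lineage B (exact permutation p = 0.04, adjusted p = 0.24). The log2 difference of Ku70-/- against Lig4-/- in lineage A minus that in lineage B was -2.12 (exact permutation p = 0.04, adjusted p = 0.24). The Lig4-/- libraries enter both.

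The effect of cycling on the inverted share, in Lig4-/- minus in WT, was -3.58 percentage points (exact permutation p = 0.005, adjusted p = 0.09). Counting each distinct junction once it was -0.996 points (exact permutation p = 0.57), and without the recurrent positions it was 1.52 points (exact permutation p = 0.1).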

How the results depend on the processing

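Of 677 alternatives over 58 results, 607 kept direction and side of the threshold, 42 reversed the sign, 19 came to pass the threshold, 8 no longer passed it and 1 moved; the cause of these changes was not tested. Alternatives outside the original list were chosen after seeing the data. Replicate numbers did not pair the libraries (correlations of same-numbered deviations from -0.92 to 0.60 over the 9 comparisons of level, 3 of them over 0.1). With the number as a replicate block, Lig4-/-Ku70-/- against Lig4-/- (0.79) had exact p = 0.0625, and no other call changed; the smallest p is 0.03125 over 6 pairs and 0.25 over 3. Within-run values of adding Lig4 back and of the matched cycling sets against arrested cells were not run, as these share no run.

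For levels (log2), Ku70-/- minus WT turned to 0.017 beyond 10 bp, 0.69 without recurrent positions, 0.17 with the other arrested lineage A sets and 0.19 within run, and ranged from -0.25 to 0.23 as single replicates were left out. Lig4-/- minus WT was 0.13 in lineage A LAM-HTGTS lists and -0.98 with the other sets (leave-one-out -0.83 to -0.56). Ku70-/- minus Lig4-/- was 2.45 without recurrent positions, -0.41 in LAM-HTGTS lists and 1.71 within run (leave-one-out 0.44 to 0.92, the highest without Ku70_A1 replicate 1 with exact p = 0.045). Lig4-/-Ku70-/- minus Lig4-/- was 0.68 within 10 kb and 0.65 with prey alignments of at least 30 bp (leave-one-out 0.65 to 1.01), and 0.46 within run. Adding Lig4 back ranged from -0.22 to 0.15. Against all arrested sets of the clone, cycling gave 3.74 in WT and 5.51 in Lig4-/-.

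For the inverted share (points), Ku70-/- minus WT was -0.963 with distinct junctions, -2.77 beyond 10 bp, -0.00861 with prey alignments of at least 30 bp, -3.06 with direct joins beyond 10 bp, -3.89 with these counted once and -10.5 in LAM-HTGTS lists. In these lists, with 3 libraries a group, Lig4-/- minus WT was 30.1 and Ku70-/- minus Lig4-/- was -40.6. Adding Ku70 back ranged from 0.574 to 1.06. Cycling minus all arrested sets was 0.435 in WT and -7.55 in Lig4-/-, and for Lig4-/- against its matched set 1.99 with distinct junctions, 1.95 without recurrent positions and 0.402 with distinct direct joins beyond 10 bp.

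For structure, with at least 2 joins per library Ku70-/- minus WT was 16.3 points on the bait side, -0.236 in log10 distance (leave-one-out -0.0729 to 0.0221) and -15.9 points of microhomology (-1.51 beyond 10 bp, leave-one-out -1.52 to 6.86). The cycling bait-side share of Lig4-/- minus WT was -0.443 without recurrent positions (leave-one-out -0.0549 to 3.52). Cycling minus all arrested sets was 78.8 and 78.7 points on the bait side, -20.9 and -22.7 of microhomology in WT and Lig4-/-, and 13.4 of insertions in Lig4-/-. Inverted minus direct microhomology in Lig4-/-Ku70-/- was -3.74 without recurrent positions. Inverted minus direct insertions, with distinct direct joins and with these beyond 10 bp, were -13.9 and -13.8 in Ku70-/-, -4.81 and -3.16 in Lig4-/-Ku70-/- and -23.9 and -12.5 in cycling cells. With all prey beyond 10 bp they were 2.69 in cycling WT, 2.01 in cycling Lig4-/- (leave-one-out -1.67 to 0.901) and 2.35 in both. Bait loss in Lig4-/-Ku70-/- (log10) was -0.0196 and -0.0334 with distinct and distinct far direct joins. Counts of 0 to 31 inverted joins per arrested library limit the precision of each value there.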
